A study of Mus musculus with 4 samples.

Results

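Transcripts of 7 genes of the CC chemokine system were followed through the cells of popliteal lymphatic vessels (PLVs) and the adjacent superficial saphenous vein (SSV). They were the ligands *Ccl2*, *Ccl7*, *Ccl8*, *Ccl12*, *Ccl6* and *Ccl9* and the receptor *Ccr2*. The genes were chosen by name, with earlier results of these data known, and all 7 were found among the 30406 genes listed for every library. Each was described by cell type and library as unique molecular identifiers (UMIs, 1 per captured mRNA molecule) per 1000000 UMIs of the cells summed (CPM), and by the percent of those cells holding any UMI of the gene.

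The study sorted single cells from these vessels for droplet sequencing, to ask how mural cells and leukocytes of joint-draining vessels differ in inflammatory arthritis. All mice were on a C57BL/6J background, and each of the 4 libraries pooled the vessels of 3 mice. A replicate pair, tdT1 and tdT2, was sorted for live tdT+ cells of male and female *Cspg4*-Cre;Ai9-tdTomato mice over 8 months old, in which Cre driven by the *Cspg4* gene switches on a red reporter in mural cells. The pair was not handled alike. The study sorted tdT1 through a narrower nozzle, into tubes not coated with serum, and sequenced it on another instrument than the other libraries. The part of this in the values of tdT1 was not tested. The WT library came from male wild-type mice and the TNF-Tg library from male mice of the 3647 line, which carries a human TNF transgene, both labelled as 9 months old and both sorted for large or irregular cells by light scatter. TNF-Tg and WT were therefore 1 library each, so no test between them exists, and genotype, pool and library preparation cannot be told apart. All intervals below are at 95% and cover counting error only. The human transgene was not among the listed genes and did not serve as a check of the label.

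The libraries held 1504 cells (tdT1), 454 (tdT2), 5488 (WT) and 3391 (TNF-Tg), with 2357031 to 68773605 UMIs. The tdT1 library stood apart in quality, with 4.11% mitochondrial UMIs against 1.16% to 1.56% in the others. Pairs of libraries shared 0 to 5 cell barcodes. The reporter gene *Tdtomato* was not listed for tdT1 and had 118 UMIs in tdT2 and 0 in both untagged libraries.

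Cells were gated on summed UMIs of marker genes, none of them among the 7 genes, and the names stand for marker content and not for an independent identity. Stromal cells numbered 1030, 248, 2164 and 1102 in tdT1, tdT2, WT and TNF-Tg, the order in which sets of 4 values are given throughout. They were split by the markers that the study gave for lymphatic muscle cells (*Pi16*, *Myoc*, *Fndc1*, *Dpt*, *Adamts5*, *Efemp1*) and for vascular smooth muscle cells (*Mgp*, *Cxcl14*, *Gdf10*, *Inmt*, *Igfbp7*, *Bgn*). The study rested the muscle labels on *Cald1*, *Tpm1* and *Pdgfrb* and on a *Pdgfrb* reporter. It also used the *Cspg4* reporter sort set beside vessel imaging, muscle-related transcription factors, and lymphangiogenic and angiogenic factors. Higher *Cst3*, *Mgp* and *Bgn* marked its vascular cells and higher *Ackr3* its lymphatic cells. It described these muscle cells as myofibroblast-like, and itself found little *Acta2*, *Myh11* and *Tagln*. These 3 genes were also low here, while the muscle gene *Des* was at 31.7, 8.16, 27.8 and 17.5 CPM in stromal cells. *Acta2* was at 0.255 to 6.67 CPM, *Myh11* at 0 to 2.22 CPM and *Tagln* at 0.192 to 6.67 CPM. In the same cells *Dcn* was at 13021 to 21292 CPM and *Pdgfra* at 440.6 to 639.9 CPM. The gates are therefore called Pi16/Myoc stroma (768, 109, 1404 and 518 cells) and Mgp/Cxcl14 stroma (134, 82, 510 and 412 cells). Stromal cells with neither marker set clearly ahead are called intermediate stroma (128, 57, 250 and 172 cells) and are counted in all stroma. Cells rich in C1q genes were called macrophages, as resident macrophages where they also carried *Lyve1*, *Folr2*, *Cd163* and *Cd209* family genes (17, 50, 1576 and 288 cells), and as other macrophages where they did not (13, 7, 175 and 146 cells). Inflammatory monocytes were gated on *Ly6c2*, *Chil3*, *Plac8*, *Ms4a4c* and *Vcan* (14, 27, 92 and 727 cells). In TNF-Tg, 12.2% of the leukocytes tested lay within 2-fold of the macrophage cut and 29.6% of those left lay within 2-fold of the inflammatory monocyte cut.

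Chemokines of the CC family are small secreted proteins that bind G protein-coupled receptors on leukocytes. *Ccl2* (MCP-1), *Ccl7* (MCP-3), *Ccl8* (MCP-2) and *Ccl12* (MCP-5) belong to the monocyte chemoattractant group. CCR2, a receptor for CCL2, CCL7 and CCL12, is carried by inflammatory monocytes and lets them leave the bone marrow and enter inflamed tissue. Mouse CCL8 acts chiefly through CCR8. *Ccl6* and *Ccl9* are rodent chemokines of myeloid cells that act through CCR1. The ligand genes lie in a chemokine cluster, and sequences near their start sites are shown because members of the monocyte chemoattractant group differed in the cells that carried them.

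On GRCm38, *Ccl2* (ENSMUSG00000035385) lies on the plus strand of chromosome 11 from 82035571 to 82037453 and *Ccl7* (ENSMUSG00000035373) from 82045712 to 82047525. *Ccl12* (ENSMUSG00000035352) follows from 82101845 to 82103400 and *Ccl8* (ENSMUSG00000009185) from 82115185 to 82116799. *Ccl9* (ENSMUSG00000019122, 83572919 to 83578636) and *Ccl6* (ENSMUSG00000018927, 83587882 to 83593087) lie on the minus strand of the same chromosome. *Ccr2* (ENSMUSG00000049103) is on the plus strand of chromosome 9 from 124101950 to 124113557. The longest run of bases shared by transcripts of any pair of members was 25, between *Ccl6* and *Ccl9*, and 23 between *Ccl2* and *Ccl7*. RefSeq (GRCm38.p6) windows from 250 bases before to 50 bases after the start site were matched for 5 of the 7 genes, *Ccl2* and *Ccl7* not among them. The windows of *Ccl8* (chr11:82114935-82115234, plus strand) and *Ccl12* (chr11:82101595-82101894, plus strand), neighbours that were both macrophage genes here but differed in stroma, are printed with the letters TATAAA in capitals:

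Ccl8: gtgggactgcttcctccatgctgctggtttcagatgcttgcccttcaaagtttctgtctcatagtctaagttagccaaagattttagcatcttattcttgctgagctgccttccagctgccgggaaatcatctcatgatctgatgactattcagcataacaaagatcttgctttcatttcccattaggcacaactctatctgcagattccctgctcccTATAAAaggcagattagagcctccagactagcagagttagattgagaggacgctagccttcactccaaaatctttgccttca

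Ccl12: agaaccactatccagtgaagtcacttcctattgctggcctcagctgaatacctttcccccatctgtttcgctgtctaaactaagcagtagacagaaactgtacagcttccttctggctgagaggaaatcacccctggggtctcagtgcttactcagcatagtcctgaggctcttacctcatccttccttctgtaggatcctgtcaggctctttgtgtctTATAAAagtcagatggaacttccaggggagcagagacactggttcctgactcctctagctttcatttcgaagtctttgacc

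The capitals began 32 bases before the start site in *Ccl8* and 31 bases before it in *Ccl12*. TATAAA, searched on both strands, was in 13.6% of 32851 such windows, including those of *Ccl8*, *Ccl12* and *Ccl9*. The letters TTCNNNGAA, also searched on both strands, were in 8.30% of all windows and in 0 of the 5.

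Macrophages, resident and other summed together, carried more of all 7 transcripts than stromal cells did. Sums per gate and library were compared in edgeR over 12 sums (stroma, macrophages and monocytes in each of 4 libraries), with library as a block and a threshold of 0.01. Of 11273 genes tested, 18.9% were called higher in macrophages and 23.3% lower, and 7 of the 7 members were called higher. Differences are on the log2 scale, ± an SE derived from edgeR's test statistic over the 12 sums of n = 4 libraries. This SE is not the spread between the libraries. The difference between macrophages and stroma was smallest for *Ccl7* (2.24 ± 0.53) and *Ccl2* (3.32 ± 0.73). It was 4.85 ± 0.46 for *Ccl8*, 7.85 ± 0.38 for *Ccl9*, 8.49 ± 0.44 for *Ccl6*, 8.75 ± 0.49 for *Ccl12* and 9.12 ± 0.61 for *Ccr2*. In edgeR's quasi-likelihood test with Benjamini-Hochberg adjustment over all genes, the adjusted p was 0.00208 for *Ccl7*, 0.00118 for *Ccl2* and at most 1.84e-07 for the other 5. The call for *Ccl7* was lost without tdT2 (adjusted p = 0.0236 in edgeR), without WT (0.0153 in edgeR) and without the library block (0.0635 in edgeR). Other macrophages alone held less *Ccl7* than stroma in tdT1 (36.6 against 338 CPM) and tdT2 (28.4 against 75.6 CPM), on 13 and 7 cells. They also held less *Ccl8* than stroma in tdT2 (28.4 against 101 CPM) and TNF-Tg (205 against 234 CPM).

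Monocytes carried less of *Ccl8*, *Ccl7*, *Ccl12* and *Ccl9* than macrophages did. Here and below, monocytes without a further name are inflammatory and patrolling monocytes summed together (21, 30, 97 and 867 cells). With 7.68% of all genes called higher in monocytes and 10.5% lower, 4 members were called lower and 0 higher. *Ccl8* was lower by a log2 difference of -9.07 ± 0.61 (edgeR, adjusted p = 7.91e-08), *Ccl7* by -5.45 ± 0.63 (1.27e-05) and *Ccl12* by -4.46 ± 0.43 (2.31e-06). *Ccl9* was lower by -1.24 ± 0.29 (edgeR, adjusted p = 0.00431), a call lost without tdT2 (0.0154), without WT (0.0307) and without TNF-Tg (0.0584). *Ccl2* (-2.00 ± 0.66, edgeR, adjusted p = 0.0331) and *Ccl6* (-0.97 ± 0.32, 0.0356) did not pass, although both did without tdT1 (0.00182 and 0.00796). *Ccr2* differed by 0.64 ± 0.43 (edgeR, adjusted p = 0.303) and passed without tdT1, at 1.30 (0.00868). For *Ccr2* both sides of this comparison pooled unlike gates. Inflammatory monocytes held 653 to 1860 CPM and patrolling monocytes 0 to 65.3 CPM over the libraries. Other macrophages held 1402 to 2161 CPM and resident macrophages 96.4 to 180.2 CPM. The part of gate makeup in this result was not tested.

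**Figure D1:**
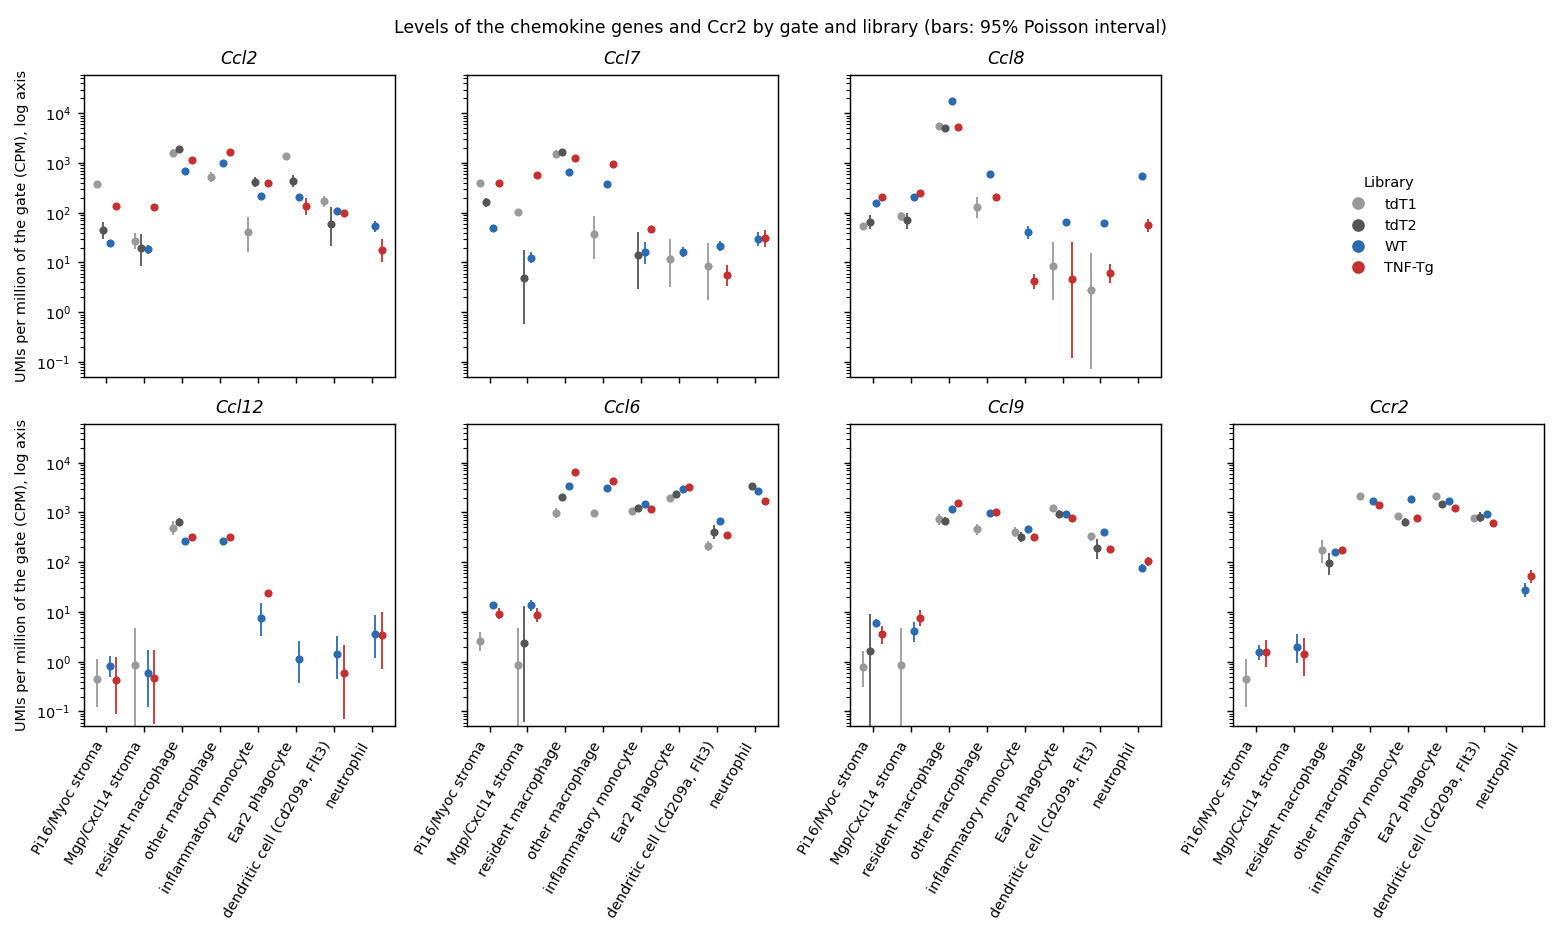
Levels of the 7 genes by gate (x axis) and library (colours), as CPM of the gate on a log axis, with 95% Poisson intervals as bars. Sums with 0 UMIs or under 10 cells are left out. *Ccl12*, *Ccl6*, *Ccl9* and *Ccr2* sit at or below 14.1 CPM in both stromal gates shown, while *Ccl2*, *Ccl7* and *Ccl8* are found in stroma and in macrophages.

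*Ccl2*, the best known monocyte attractant, was present in stroma of every library. In all stromal cells its level was 307, 28.2, 22.7 and 134 CPM. TNF-Tg was thus above WT and tdT2, and tdT1 was above all of them. In Pi16/Myoc stroma *Ccl2* was at 386, 44.8, 24.1 and 137 CPM, and in Mgp/Cxcl14 stroma at 27.1, 19.3, 18.6 and 132 CPM. The high tdT1 value belonged to the Pi16/Myoc cells, and in Mgp/Cxcl14 cells TNF-Tg stood alone above the other 3 libraries. The ratio of TNF-Tg to WT was 5.88 [5.39–6.42] in all stroma, 5.68 [5.11–6.32] in Pi16/Myoc stroma and 7.06 [5.67–8.87] in Mgp/Cxcl14 stroma. The transcript was concentrated in few cells. With every cell thinned to 3000 UMIs, 2.91% of stromal cells in WT and 9.28% in TNF-Tg had a *Ccl2* UMI, and the tenth of stromal cells richest in it held 94.8% of its UMIs in TNF-Tg.

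*Ccl7*, which attracts monocytes through the same receptor, showed the largest TNF-Tg to WT ratio of the 7 genes in stroma. Its level in all stromal cells was 338, 75.6, 42.9 and 479 CPM, highest in TNF-Tg. Pi16/Myoc stroma held 389, 161, 49.1 and 388 CPM, so that TNF-Tg and tdT1 had nearly the same level in these cells. Mgp/Cxcl14 stroma held 102, 4.83, 12.5 and 566 CPM, and here TNF-Tg was above every other library. Intermediate stroma held 212, 9.04, 46.7 and 602 CPM, the highest level of the stromal gates in TNF-Tg. The TNF-Tg to WT ratio was 11.2 [10.5–11.9] in all stroma, 7.91 [7.38–8.49] in Pi16/Myoc stroma and 45.1 [35.2–58.8] in Mgp/Cxcl14 stroma, where 64 UMIs were counted in WT and 2427 in TNF-Tg. That WT level, 12.5 CPM, was below WT inflammatory monocytes (16.1 CPM), dendritic cells (21.5 CPM) and neutrophils (29.5 CPM). It was above WT erythroid cells (2.89 CPM) and cDC1 dendritic cells (5.25 CPM). How much of it was background was not tested, so the size of this ratio is uncertain. At 3000 UMIs a cell, 30.8% of stromal cells in TNF-Tg and 6.80% in WT had a *Ccl7* UMI.

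Genes that answer to tissue dissociation were set beside these transcripts, and their part in the stromal levels was not tested. A list of 16 such genes (among them *Fos*, *Jun*, *Egr1*, *Atf3*, *Hspa1a*, *Nfkbia*, *Socs3*, *Zfp36* and *Ier3*) summed to 25603, 9118, 6074 and 5299 CPM in stromal cells. The sum was thus highest in tdT1 and slightly lower in TNF-Tg than in WT. Whether genes of the list, such as *Nfkbia* and *Socs3*, also answered to the TNF transgene was not tested, so the split below is not one of handling alone. Stromal cells were parted at the median share of these UMIs over WT and TNF-Tg, 50.3 per 10000 UMIs. Under the median, *Ccl2* was at 20.6, 19.6, 13.4 and 130.01 CPM, and over it at 322, 35.3, 29.3 and 137 CPM. The high tdT1 level was found in the 952 cells over the median and not in the 78 cells under it, and the TNF-Tg level was nearly the same on both sides. *Ccl7* was at 39.4, 68.6, 29.4 and 389 CPM under the median and 353, 81.5, 52.4 and 574 CPM over it, higher over the median in each library and most so in tdT1. The TNF-Tg to WT ratio of *Ccl2* was 9.67 [8.21–11.4] under the median and 4.69 [4.21–5.22] over it, and that of *Ccl7* was 13.2 [11.9–14.7] under it and 10.95 [10.2–11.8] over it.

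**Figure D2:**
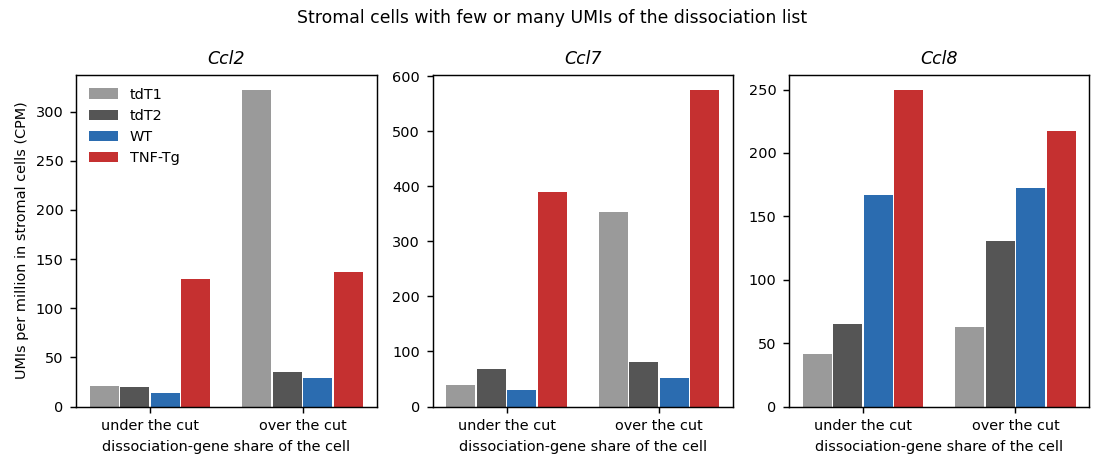
Stromal *Ccl2*, *Ccl7* and *Ccl8* (CPM, linear axis from 0) in cells under and over the median share of dissociation-gene UMIs, with a bar for each library. In cells under the median, TNF-Tg holds 130.01 CPM of *Ccl2* and 389 CPM of *Ccl7*, above the other 3 libraries, and tdT1 reaches 322 and 353 CPM in cells over it.

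Macrophages held the highest levels of both transcripts among the gates with at least 100 cells in both WT and TNF-Tg. This scope leaves out mast cells and leukocytes past no specific marker cut, whose *Ccl2* levels are given below. In resident macrophages *Ccl2* was at 1601, 1934, 694 and 1151 CPM and *Ccl7* at 1521, 1656, 669 and 1281 CPM. WT was the lowest of the 4 libraries for both genes. TNF-Tg was above WT 1.66-fold [1.60–1.72] for *Ccl2* and 1.91-fold [1.85–1.98] for *Ccl7*, while the tdT libraries, from mice without the transgene, were higher still and rest on 17 and 50 cells. Their resident macrophages also had the higher dissociation-list sums, at 46718, 17946, 9957 and 7218 CPM over the 4 libraries. The part of this in the tdT levels was not tested. In other macrophages *Ccl2* was at 977 CPM in WT and 1699.9 in TNF-Tg, and *Ccl7* at 375 and 966 CPM, ratios of 1.74 [1.65–1.83] and 2.57 [2.38–2.79].

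Inflammatory monocytes carried *Ccl2* but little *Ccl7*. *Ccl2* was at 40.2, 416, 216 and 389 CPM in these cells, and *Ccl7* at 0, 14.2, 16.1 and 46.8 CPM. In TNF-Tg, leukocytes past no specific marker cut (135 cells) held *Ccl2* at 1421 CPM, against 240 CPM in the 63 such cells of WT. Mast cells (101 in WT and 17 in TNF-Tg) were shallow, with a median of 1069 UMIs in WT and 1007 in TNF-Tg. They held 1174 and 1836 CPM of *Ccl2*, above both macrophage gates of the same library.

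The share of cells with *Ccl7* was higher among cells that also held *Ccl2*. Among stromal cells of TNF-Tg thinned to 3000 UMIs, *Ccl7* was detected in 66.3% of the 95 cells with *Ccl2* and in 27.1% of the 929 cells without it. In WT stroma these shares were 25.4% of 59 cells and 6.24% of 1971 cells. Resident macrophages gave 73.3% against 31.7% in WT and 83.2% against 39.2% in TNF-Tg. Cells are not replicates, and these shares carry no test.

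*Ccl8* was above all a resident macrophage transcript, and its level there set WT apart. It was at 5496, 4944, 17862 and 5252 CPM in resident macrophages, or 28.1, 17.4, 219.7 and 63.8 UMIs per cell. TNF-Tg and both tdT libraries were close to each other, and WT stood more than 3-fold above each of them. The TNF-Tg to WT ratio was 0.294 [0.290–0.298]. Detection changed less than the level, since at 3000 UMIs a cell 95.8% of resident macrophages in WT and 88.5% in TNF-Tg had a *Ccl8* UMI. The resident list that gated these cells summed to 6243 CPM in WT and 5224 in TNF-Tg, and the macrophage list to 19609 and 12558 CPM, with 0 of the 12 genes of these lists at 0 in either. In other macrophages *Ccl8* was at 132, 28.4, 598 and 205 CPM, and in inflammatory monocytes at 0, 0, 40.8 and 4.23 CPM. The WT level in inflammatory monocytes was below that of WT erythroid cells, 69.5 CPM, and is read as background and not as expression.

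Stromal *Ccl8* differed less between libraries than *Ccl2* and *Ccl7* did. All stroma held 61.5, 101, 170 and 234 CPM, Pi16/Myoc stroma 54.1, 66.4, 154 and 205 CPM, and Mgp/Cxcl14 stroma 85.6, 70.1, 207 and 251 CPM. Both tdT libraries were below WT and TNF-Tg in each gate. The TNF-Tg to WT ratio was 1.37 [1.31–1.43] in all stroma, a direction that turned when clusters replaced the gates (log2 -0.14). Macrophage RNA was measurable in WT stroma, where the 3 C1q genes summed to 43.2 CPM against 7.96 CPM in TNF-Tg. In the ratio of *Ccl8* to C1q seen in macrophages, this RNA would bring 47.5 CPM of *Ccl8* to WT stroma, 27.9% of the level there, and 3.31 CPM to TNF-Tg stroma, 1.42% of the level. Other cell types of WT also held *Ccl8*, at 40.8 CPM in inflammatory monocytes, 61.05 in dendritic cells, 64.4 in Ear2 phagocytes and 69.5 in erythroid cells, levels below the stromal 170 CPM. Neutrophils held 539 CPM and T cells 1024 CPM, but the tenth of the 74 T cells richest in *Ccl8* held 94% of its UMIs in that gate. At 3000 UMIs a cell *Ccl8* was detected in 34.3% of WT stromal cells, in 13.5% to 22.2% of the cells in those first 4 gates, in 23.6% of T cells and in 35.2% of neutrophils, so that the stromal share was above most but not all of these types. In TNF-Tg it was detected in 36.3% of stromal cells, 4.65% of neutrophils, 3.73% of dendritic cells and 2.08% of T cells.

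*Ccl12*, a mouse monocyte attractant next to *Ccl8* on the chromosome, was a macrophage transcript. Resident macrophages held 495, 652, 263 and 316 CPM, with WT again the lowest, and the TNF-Tg to WT ratio was 1.202 [1.13–1.28]. Other macrophages held 264 CPM in WT and 318 in TNF-Tg. In stroma *Ccl12* was at 0.438, 0, 0.798 and 0.368 CPM, from 5, 0, 25 and 5 UMIs. The C1q ratio would bring 0.780 CPM to WT stroma and 0.316 CPM to TNF-Tg stroma, so nearly all of these UMIs are at the level of carried-over RNA. In inflammatory monocytes *Ccl12* was at 7.59 CPM in WT and 23.6 in TNF-Tg, from 8 and 195 UMIs in 4 and 31 cells.

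*Ccl6* and *Ccl9*, the rodent myeloid chemokines, were found in several phagocyte gates and were close to absent from stroma. *Ccl9* was low in neutrophils of WT, at 77.4 CPM, near the 62.8 CPM of WT T cells. In resident macrophages *Ccl6* was at 979, 2064, 3480.1 and 6387 CPM, higher in TNF-Tg than in WT 1.84-fold [1.81–1.86], with the tdT libraries lowest. *Ccl9* was at 737, 663, 1160.3 and 1525 CPM in these cells, a TNF-Tg to WT ratio of 1.31 [1.28–1.35]. At 3000 UMIs a cell, 99.9% of resident macrophages in WT and 99.6% in TNF-Tg had a *Ccl6* UMI. Inflammatory monocytes went the other way. They held *Ccl6* at 1062, 1215, 1506 and 1175 CPM and *Ccl9* at 408, 322, 475 and 317 CPM, and the TNF-Tg to WT ratios were 0.780 [0.740–0.823] and 0.667 [0.606–0.736]. Other holders of *Ccl6* were basophils, at 7226 CPM in the 63 cells of TNF-Tg, neutrophils, at 2736 CPM in WT and 1708 in TNF-Tg, and Ear2 phagocytes (cells with *Ear2* and *Retnla*), at 2967 CPM in WT. Stroma held 14.0 CPM of *Ccl6* in WT and 8.84 CPM in TNF-Tg, of which the C1q ratio would bring 10.2 and 5.60 CPM.

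*Ccr2*, the receptor, marked several leukocyte gates and not the stroma. In all stroma it was at 0.526, 0, 1.501 and 1.33 CPM, from 6, 0, 47 and 18 UMIs, and 0.345% of WT and 0.391% of TNF-Tg stromal cells had a UMI at 3000 UMIs a cell. Other macrophages held 2161, 1531, 1694 and 1402 CPM, and resident macrophages 173, 96.4, 157 and 180.2 CPM. These gates were separated more than 7-fold in each library, and at 3000 UMIs a cell *Ccr2* was detected in 91.5% of other and 17.8% of resident macrophages in WT, and in 94.0% and 11.9% in TNF-Tg. Ear2 phagocytes held 2137, 1490, 1738 and 1250.2 CPM, dendritic cells with *Cd209a* and *Flt3* held 770, 806, 916 and 616 CPM, and T cells 324, 459, 508 and 453 CPM. For these 3 gates the 4 libraries lay within 2-fold of each other. Patrolling monocytes of TNF-Tg (140 cells), a subset known for low CCR2, held 65.3 CPM, close to the 52.3 CPM of neutrophils.

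In inflammatory monocytes *Ccr2* was at 838, 653, 1860 and 774 CPM. TNF-Tg lay between the tdT libraries, and WT was more than 2-fold above all 3. The TNF-Tg to WT ratio was 0.416 [0.395–0.438], and at 3000 UMIs a cell the transcript was detected in 71.4%, 74.1%, 95.5% and 71.6%. WT gave 92 cells to this gate and TNF-Tg gave 727, and the markers of the gate summed to 6005 CPM in WT and 4475 in TNF-Tg, with 0 of 5 at 0 in either. Markers of patrolling monocytes in the same gate were at 137 CPM in WT and 525 in TNF-Tg, with 0 of 6 at 0. Their part in the lower *Ccr2* of TNF-Tg was not tested.

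**Figure D3:**
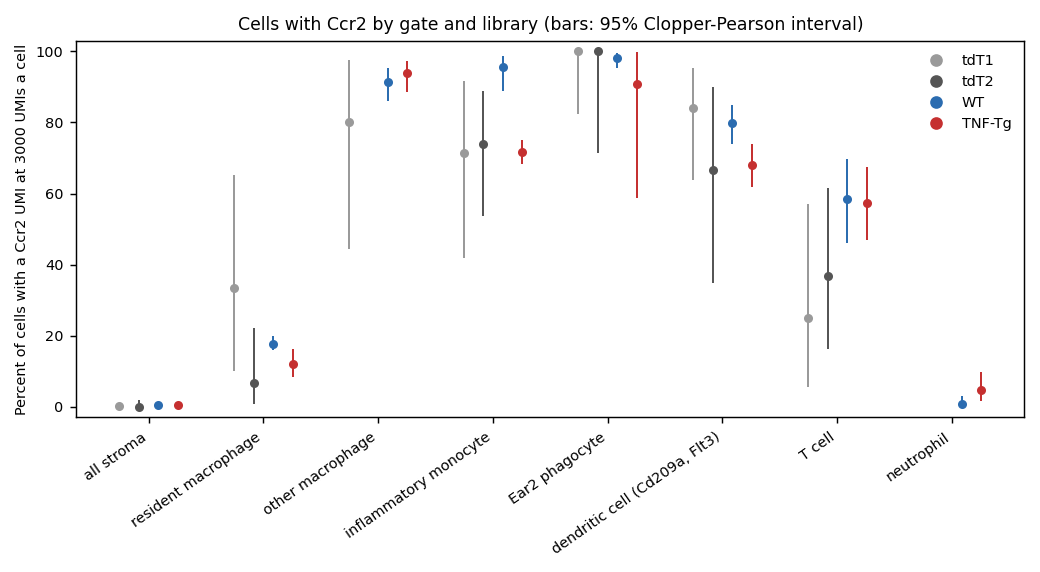
Share of cells with a *Ccr2* UMI after thinning to 3000 UMIs a cell (y axis, percent) by gate and library, with 95% Clopper-Pearson intervals as bars. Other macrophages reach 91.5% in WT and 94.0% in TNF-Tg, resident macrophages 17.8% and 11.9%, and stroma stays under 0.4% in every library.

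Within resident macrophages, the share of cells with *Ccr2* was lower among cells that held *Ccl8*. At 3000 UMIs a cell, *Ccr2* was found in 14.9% of the 1450 WT cells with *Ccl8* and in 84.1% of the 63 cells without it. In TNF-Tg it was found in 5.04% of 238 cells with *Ccl8* and in 64.5% of 31 cells without. Of all macrophages, 105 of 1751 in WT and 46 of 434 in TNF-Tg lay within 2-fold of the cut between resident and other macrophages. The part of such cells in this gap was not tested. For *Ccl2* the shares lay closer together, with *Ccr2* in 19.3% of the 750 cells with *Ccl2* and in 16.3% of the 763 cells without it in WT. In other macrophages *Ccr2* was in 92.3% of the 104 WT cells with *Ccl2* and in 90% of the 60 without it, and in TNF-Tg in 93.8% of 113 and 95.2% of 21 cells, so that the shares hardly differed by *Ccl2*. Among inflammatory monocytes of TNF-Tg, *Ccr2* was in 88.8% of the 197 cells with *Ccl2* and in 65.1% of the 519 cells without. The other libraries showed no such gap, with 95.8% of 24 against 95.4% of 65 cells in WT and 71.4% of 7 against 75.0% of 20 cells in tdT2.

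Set side by side, the genes went in different directions between WT and TNF-Tg. In all stroma, 4.73% of 12982 genes with at least 20 UMIs were at least 2-fold higher in TNF-Tg and 8.37% at least 2-fold lower. Of the 7 members, *Ccl2* and *Ccl7* were past 2-fold higher and *Ccl12* past 2-fold lower, the last on 25 and 5 UMIs, and the median log2 difference was -0.18 over the members and -0.12 over all genes. In Pi16/Myoc stroma (4.16% higher, 6.01% lower) and Mgp/Cxcl14 stroma (3.87% higher, 12.6% lower), *Ccl2* and *Ccl7* were again the members past 2-fold higher, and 0 were past it lower. In resident macrophages (5.17% higher, 7.25% lower), 0 of 7 members were past 2-fold higher and *Ccl8* was past it lower, with a median of 0.39 over the members and 0.03 over all genes. In other macrophages (6.23% higher, 8.44% lower), *Ccl7* was past 2-fold higher and *Ccl8* lower. In inflammatory monocytes (7.58% higher, 5.57% lower), *Ccl7* and *Ccl12* were past 2-fold higher and *Ccr2* lower. There *Ccl7* rested on 17 UMIs in WT and 387 in TNF-Tg, and *Ccl12* on 8 and 195. The WT *Ccl7* level, 16.1 CPM, was near the 16.5 CPM of WT Ear2 phagocytes. At 3000 UMIs a cell, 3.37% of these monocytes in WT and 4.05% in TNF-Tg had a *Ccl7* UMI. *Ccl8*, also past 2-fold lower, was at background in these cells in WT. *Ccl7* was higher in TNF-Tg in each of the 5 gates plotted, and *Ccl8* was lower in both macrophage gates and higher in both stromal gates, although with clusters in place of gates it was lower in Mgp/Cxcl14 stroma as well (log2 -1.11).

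**Figure D4:**
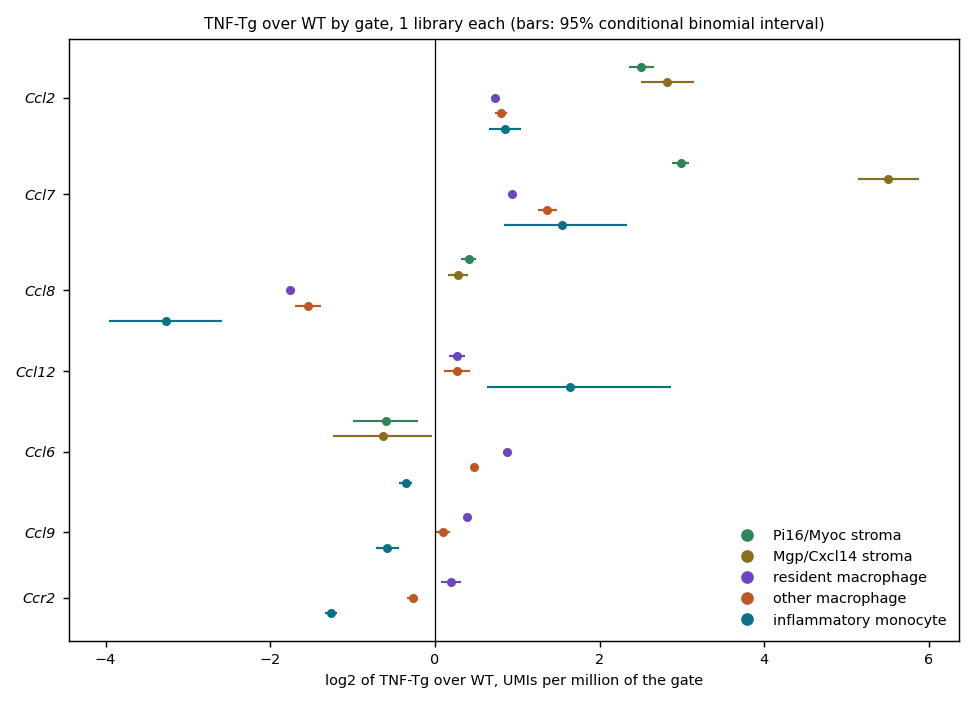
Log2 of the TNF-Tg to WT ratio (x axis) for each gene (y axis) in 5 gates (colours), with 95% conditional binomial intervals as bars, from 1 library per genotype. Points with under 20 UMIs or under 10 CPM are left out. *Ccl7* in Mgp/Cxcl14 stroma lies farthest to the right at 5.50, on a WT level of 12.5 CPM, below the 16.1 CPM of WT inflammatory monocytes. *Ccl8* lies on the left in resident macrophages, at -1.77, and in inflammatory monocytes, at -3.27, where its WT level is background. In Mgp/Cxcl14 stroma *Ccl8* lies on the right, at 0.28, which turned to -1.11 with clusters.

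The level of a gene in a gate and the number of cells in it together set where the transcripts of a library lay. In WT, macrophages were 31.9% of the cells and held 83.2% of the *Ccl2*, 86.3% of the *Ccl7*, 93.9% of the *Ccl8* and 96.6% of the *Ccl12* UMIs. Stroma was 39.4% of the cells and held 3.76% of the *Ccl2*, 8.37% of the *Ccl7* and 1.44% of the *Ccl8* UMIs. In TNF-Tg, where macrophages were 12.8% and monocytes 25.6% of the cells, the macrophage share was 48.3% of *Ccl2*, 43.7% of *Ccl7* and 80.9% of *Ccl8*. Stroma, 32.5% of the cells, held 43.3% of the *Ccl7* UMIs of TNF-Tg, nearly as many as macrophages, and 11.3% of the *Ccl2* and 13.7% of the *Ccl8* UMIs. Monocytes held 20.3% of the *Ccl2* UMIs in TNF-Tg and 1.21% in WT. The tdT sort, which selects stroma, shifted these shares and the replicates differed, with stroma at 72.6% of *Ccl2* UMIs in tdT1 and 6.81% in tdT2. Without doublets or with a stricter gate, 13 macrophage shares of these genes in WT moved beyond their counting intervals and 1 stayed. In TNF-Tg 12 moved and 2 stayed. Of the stromal shares, 1 moved and 13 stayed in WT, and 2 moved and 12 stayed in TNF-Tg. Leukocytes past no specific marker cut held a further 899 *Ccl7* UMIs in TNF-Tg, against 6574 in macrophages. Shares depend on the gate cuts and on which cells the sort let through, and are no measure of the tissue.

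The makeup of the cells carrying the receptor differed between WT and TNF-Tg. At 3000 UMIs a cell, *Ccr2* was detected in 1052 of 4821 cells in WT and in 1057 of 3055 in TNF-Tg. In WT, 39.8% [36.9–42.9] of them were macrophages, 39.7% [36.8–42.8] dendritic cells or Ear2 phagocytes and 8.08% [6.50–9.89] monocytes. In TNF-Tg, 49.1% [46.05–52.2] were monocytes, 17.0% [14.8–19.4] dendritic cells or Ear2 phagocytes and 14.9% [12.9–17.2] macrophages. Stromal cells were 0.665% of them in WT and 0.378% in TNF-Tg.

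**Figure D5:**
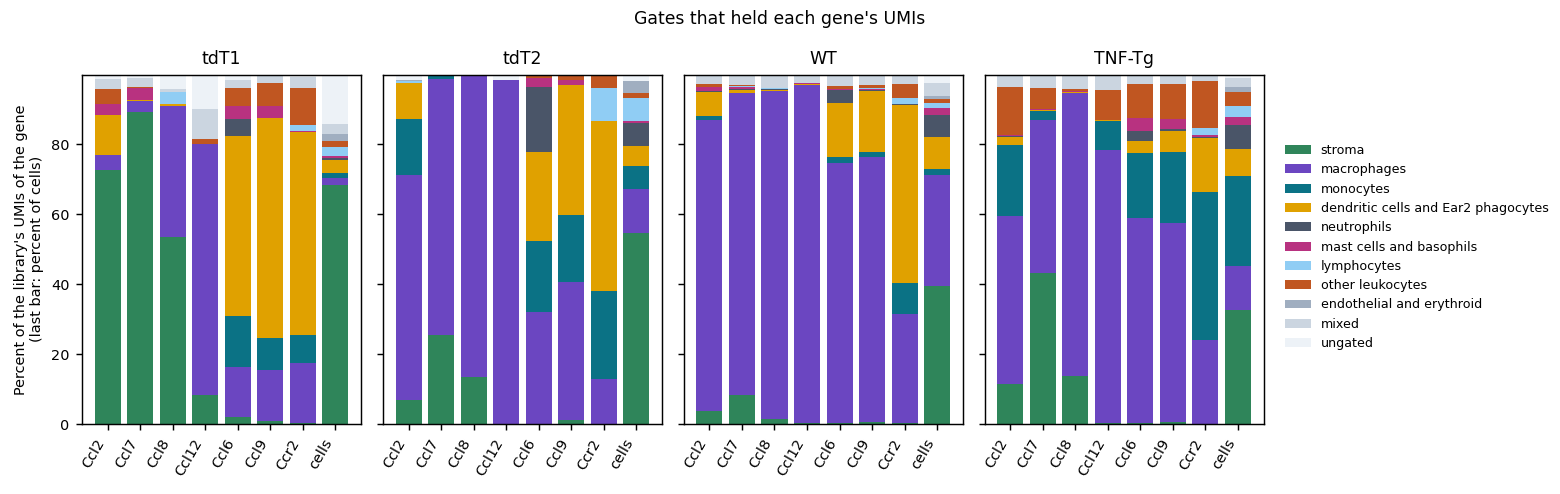
Percent of a library's UMIs of each gene held by each group of gates (stacked bars), with the percent of cells as the last bar, for the 4 libraries. In WT macrophages hold 83.2% to 96.6% of the UMIs of *Ccl2*, *Ccl7*, *Ccl8* and *Ccl12*, and in TNF-Tg stroma holds 43.3% of *Ccl7*.

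Other CC family genes were looked up from a list of ligands and receptors. Of 19 listed, 11 entered the test of macrophages against stroma, with 8 called higher and 3 lower, where 18.9% and 23.3% of all genes were called. *Ccl11* (eotaxin), *Ackr1* and *Ackr2* (atypical receptors that bind chemokines without G protein signalling) were the stromal genes, at log2 differences of -8.00, -7.55 and -9.30. In stroma *Ccl11* was at 414 CPM in WT and 516 in TNF-Tg, and *Ackr1* at 97.4 and 141 CPM. Of the 8 listed genes with enough UMIs there, 0 were at least 2-fold higher, beside 4.73% of all genes. *Ccl24*, *Ackr4* and *Ackr2* were at least 2-fold lower, beside 8.37% of all genes. *Ccl24* was higher in macrophages than in stroma by a log2 difference of 9.30. The part of carried-over RNA in its stromal level was not tested. *Ccl24* was at 499 CPM in resident macrophages of WT and 294 CPM in those of TNF-Tg. *Ccr1*, a receptor for CCL6 and CCL9, was highest in neutrophils, at 829 CPM in WT and 561 in TNF-Tg, and was at 111 and 342 CPM in other macrophages. *Cx3cr1*, the receptor of patrolling monocytes, was at 738 CPM in those of TNF-Tg. *Ccl5* was a T cell gene, at 2092 CPM in WT and 2985 in TNF-Tg, and *Ccl3* and *Ccl4* were at 8892 and 10999 CPM in basophils of TNF-Tg.

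Over 42 sums of a gate in a library with at least 20 cells, 3 patterns were matched against 2766 other genes with a mean of at least 50 CPM, by Pearson's correlation of log2(CPM + 1). The sums share libraries and depth, and the values are descriptions. *Ccl2* was most like *Pid1* (0.78), *Tep1* (0.77) and *F13a1* (0.77). *Ccl8* was most like *Folr2* (0.74), *Cd209f* (0.74) and *C1qc* (0.71), each a marker used for the macrophage gates. *Ccr2* was most like the leukocyte genes *Cd48* (0.93), *Otulinl* (0.92) and *Ctss* (0.89). Among the members, *Ccr2* went with *Ccl9* (0.82) and *Ccl6* (0.74) and not with *Ccl8* (-0.10), and *Ccl2* went with *Ccl9* (0.76) and *Ccl7* (0.71) more than with *Ccl8* (0.32).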

How the data were processed

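Sorted cells of 4 pools were profiled by 10x 3′ single-cell RNA sequencing. The authors deposited raw UMI counts per gene and cell for the barcodes that Cell Ranger called as cells (3.1.0 for tdT1 and 6.0.1 for the others per the file headers; 3.1 and 3.1.0, Seurat 4.0.3 and mm10 per the submitters' processing notes), with no normalization. Counts were read in Python 3.11.15. Every cell was kept, and gated on marker UMIs per 10000 (stroma from 63, leukocytes from 15, macrophages from 31, resident macrophages from 7, monocytes from 15). Cells with both stromal and leukocyte markers (45, 0, 200 and 85 cells) and ungated cells were kept out of the gates. Scrublet in scanpy 1.11.5 predicted 4, 0, 137 and 74 doublets, left in except in an alternative. Cells were thinned with seed 42. Ratios have exact conditional binomial intervals, levels exact Poisson and shares exact Clopper-Pearson intervals, all for counting error only.

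Gate sums were tested in R 4.3.3 with edgeR 4.0.16 (TMM, filterByExpr, glmQLFTest). On simulated data for macrophages against stroma (11273 genes), 16%, 82%, 100% and 98% of genes changed 2, 4, 8 and 16-fold were recovered, with 9 false calls. DESeq2 1.42.0, other scalings, filters, gates, clusters and left-out libraries were alternatives. The members, marker lists and the list of other CC genes were chosen with earlier results of these data known. All 7 members are named throughout, other CC genes from among those that reached 50 CPM in a gate of WT or TNF-Tg (not all of which are reported here), and the 3 most similar genes for *Ccl2*, *Ccl8* and *Ccr2*. Genes past 2-fold needed 20 UMIs. A lower macrophage cut, the subtraction of carried-over RNA and the split by dissociation genes were chosen after the data were seen.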

Additional observations from a re-analysis of the deposited data

Results flagged for a closer look

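For 4 genes, levels differed in opposite directions in different gates between WT and TNF-Tg. The differences between the gates were not tested, since each genotype was 1 library. *Ccl8* stood at a log2 TNF-Tg to WT ratio of 0.46 in all stroma and -1.77 in resident macrophages. *Ccl6* stood at 0.88 in resident macrophages and -0.36 in inflammatory monocytes, and *Ccl9* at 0.39 and -0.58 in the same gates. *Ccr2* stood at 0.20 in resident macrophages and -1.27 in inflammatory monocytes, but the resident macrophage value turned to -0.81 with a stricter gate, -2.00 with clusters and -0.37 in cells over the median of dissociation genes, so its opposite direction does not hold. The stromal *Ccl8* value turned to -0.14 with clusters.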

How the results depend on the processing

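Among the TNF-Tg to WT ratios, the direction turned under some alternative for *Ccl8* in all stroma and in Mgp/Cxcl14 stroma, *Ccl9* in other macrophages and *Ccr2* in resident macrophages, and many values moved beyond their counting intervals. With clusters in place of gates, the log2 ratio in stroma was 2.74 for *Ccl2*, 3.39 for *Ccl7* and -0.14 for *Ccl8*, which turned, as it did in Mgp/Cxcl14 stroma (-1.11), and in resident macrophages 0.52 for *Ccl2*, -1.51 for *Ccl8*, 0.45 for *Ccl12*, 0.93 for *Ccl6* and 0.46 for *Ccl9*. TMM scaling gave 0.53 for stromal *Ccl8*, 0.64, 0.84, -1.86, 0.78 and 0.30 for *Ccl2*, *Ccl7*, *Ccl8*, *Ccl6* and *Ccl9* in resident macrophages and -1.17 for *Ccr2* in inflammatory monocytes. A stricter gate gave 0.56, 0.77, -1.70, 0.13 and 0.91 for *Ccl2*, *Ccl7*, *Ccl8*, *Ccl12* and *Ccl6* in resident macrophages and -1.36 for *Ccr2* in inflammatory monocytes. Subtracting carried-over RNA gave 2.68 for stromal *Ccl2* and 0.91 for stromal *Ccl8*. A macrophage cut of 15 gave -0.36 for *Ccr2* in other macrophages and -1.37 in inflammatory monocytes, and turned *Ccl9* in other macrophages (-0.033). In cells under and over the median of dissociation genes, stroma gave 3.27 and 2.23 for *Ccl2* and 0.58 and 0.33 for *Ccl8*, and 3.72 under it for *Ccl7*. Resident macrophages gave 0.92 and 0.64 for *Ccl2*, 1.11 and 0.87 for *Ccl7*, -1.90 and -1.74 for *Ccl8*, 0.93 and 0.76 for *Ccl6*, 0.56 and 0.12 for *Ccl9*, and 0.52 under it for *Ccl12*. *Ccr2* in resident macrophages turned with the stricter gate (-0.81), clusters (-2.00) and over the median (-0.37). The share of stromal cells with *Ccl8* was 11.5 percentage points lower in TNF-Tg before thinning and higher after it, by 2.04 at 3000 and 2.87 at 1500 UMIs (Pi16/Myoc stroma 0.61 at 1500, Mgp/Cxcl14 stroma 2.32 and 2.81). The cause of these turns was not tested. Of 441 values under the alternatives, among those that answer a comparison 56 stayed within their limits, 45 moved and 1 turned. Among the others 236 kept their call or stayed within their error, 79 moved, 10 turned, 8 lost a call and 6 gained 1.

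Macrophages against stroma had 4762 genes called, and 3153 to 4974 with a library left out. Monocytes against macrophages had 2054, 1016 to 2004 with a library left out, 1315 without both tdT libraries and 1172 without the library block. Leaving out the block also ended the call of *Ccl7* between macrophages and stroma (adjusted p = 0.0635, edgeR) and that of *Ccl9* between monocytes and macrophages (0.0751, edgeR), which DESeq2 ended too (0.0115). No paired analysis was possible because WT and TNF-Tg were 1 library each. No value of any member came from clusters for other macrophages and inflammatory monocytes, since WT formed no such cluster. The ratios of *Ccl7*, *Ccl8* and *Ccl12* in inflammatory monocytes were put under none of the alternatives. The depth of tdT1 and tdT2 macrophages (17 and 50 resident cells) limits their values.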
